A study of Homo sapiens with 7 samples.

Results

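Cytochromes P450 (CYP) are haem enzymes that oxidise drugs, steroids, fatty acids and vitamins, and UDP-glucuronosyltransferases (UGT) join a sugar to the same kinds of molecule so that they can be excreted. Many genes of both families arose by repeated tandem duplication and still lie side by side in clusters, and many are used mainly in liver, gut, adrenal or lung. H3K27me3, laid down by the Polycomb complex PRC2, and H3K9me3, the mark of constitutive heterochromatin, are both linked with silent genes. The genes described here are the autosomal protein-coding genes of GENCODE v44 (hg38) named CYP, a number, a letter and a number, or UGT1A, UGT2A, UGT2B or UGT3A and a digit. This rule selected 77 of 19111 autosomal protein-coding genes, of which 56 were CYP and 21 were UGT genes. Members whose neighbouring start sites lay at most 200 kb apart formed a locus, which gave 37 loci. Of these, 14 were clusters with 54 members and 23 were lone genes, all of them CYP genes. The rule uses names alone and no measured value, although it was proposed with earlier results of these data known.

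The domains came from ChIP-seq of HCT116, a human colorectal carcinoma line, carrying a doxycycline-inducible shRNA against UHRF1, a reader and ubiquitin ligase needed for the upkeep of DNA methylation. Clone 3 and Clone 6, each a single expanded clone, were sampled at day 14 without doxycycline, so every library is a baseline sample that carries the uninduced shRNA. Clone 3 had 2 samples of each mark and 1 input, and Clone 6 had 2 samples of H3K27me3. Samples of H3K9me3 in Clone 6 were not analysed here, but the clone-shared H3K9me3 set rests on them too. The deposited tables held 567 H3K9me3 and 2600 H3K27me3 domains of Clone 3, 1959 H3K27me3 domains of Clone 6, and 478 H3K9me3 and 1844 H3K27me3 domains shared by the clones. The methods state a minimum read depth per library, but the depth of each cannot be read from domain tables. The domain tables combine the replicates of a group, so no value below has a replicate error, no test could be made, and counts are set beside those of all 19111 genes. Of 11 colorectal epithelium markers, none had its start site in any set, beside 12.6% of all genes. Of 12 hepatocyte markers, APOB alone did, in H3K27me3 of both clones, and of 8 neuron markers 3 did in Clone 3 and 4 in Clone 6, all in H3K27me3. Of all genes 6.49% lay in H3K27me3 in Clone 3 and 7.98% in Clone 6. The marker lists are short, and their counts are a description.

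H3K27me3 domains held CYP and UGT start sites at a higher share than autosomal genes in general, and H3K9me3 domains held 1 member. In Clone 3, 14 of 77 members (18.2%) had their start site in an H3K27me3 domain, beside 6.49% of all genes. In Clone 6 the count was 18 (23.4%), beside 7.98%. The clone-shared H3K27me3 set held 11 members (14.3%), beside 5.35%. A single member, CYP7B1, lay in H3K9me3, both in Clone 3 (1.3%, beside 3.50%) and in the clone-shared set (1.3%, beside 3.39%). By locus this was 1 of 37 (2.7%) in each set. A count of 1 is too small to set apart from the shares of all genes. No member lay in both marks in Clone 3, where 2 of the 19111 autosomal protein-coding genes did. For all 77 members the clone-shared H3K27me3 call equalled presence in both clones, and over all genes both counts were 1022. The clone-shared sets hold coordinates found in both clones, so this follows from how they were made. Their counts are not separate evidence from those of the clones. In all, 22 members lay in at least 1 of the 5 sets (12.6% of all genes did) and 55 lay in none.

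**Figure D1:**
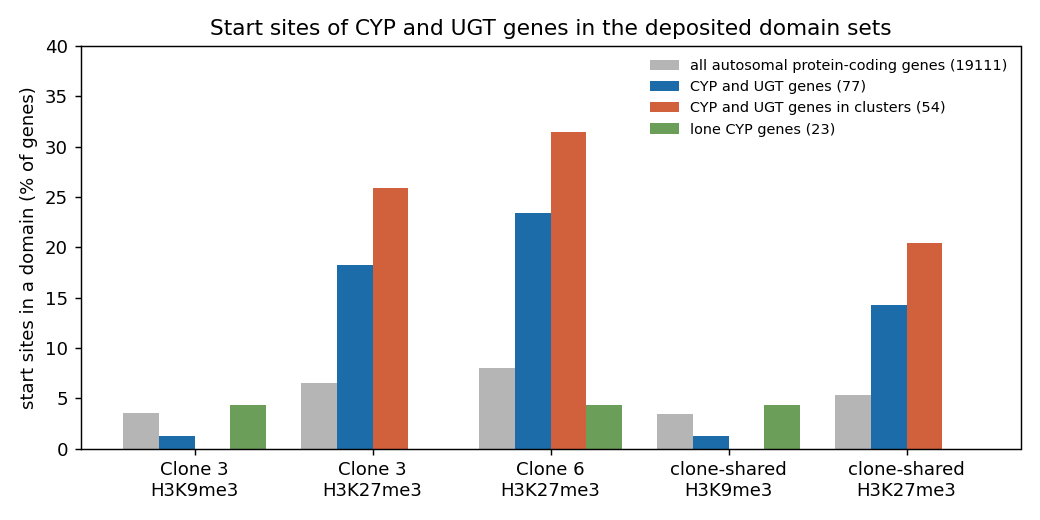
Share of start sites (%, vertical axis) in each of the 5 deposited domain sets, for all autosomal protein-coding genes, the 77 CYP and UGT genes, the 54 of them in clusters and the 23 lone genes. The H3K27me3 bars of the clustered genes reach 25.9% in Clone 3 and 31.5% in Clone 6, and the H3K9me3 bars stay at or below 4.35%.

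The marked members were almost all clustered. In Clone 3, 14 of 54 clustered members (25.9%) and 0 of 23 lone genes lay in H3K27me3. In Clone 6 the counts were 17 of 54 (31.5%) and 1 of 23, the lone gene being CYP11A1. Neighbours in a cluster share domains, so members are not independent observations. By locus the counts were 5 of 37 in Clone 3 (13.5%) and 7 of 37 in Clone 6 (18.9%), lower shares than by gene. A locus counts when any of its members does, and no like count was made over all genes. With genes joined at 100 kb the Clone 3 count was 8 of 46. Of the 14 clusters, 7 had at least 1 member in a domain and 7, with 27 members, had none. UGT3A and CYP11B were the clusters whose members all lay in H3K27me3, and both did so in both clones, although the Clone 3 call of UGT3A2 was lost with domains of at least 100 kb or the upper 50% by score. Among CYP genes 12 of 56 (21.4%) lay in H3K27me3 in Clone 3 and 16 (28.6%) in Clone 6, beside 6.49% and 7.98% of all genes. Among UGT genes 2 of 21 (9.52%) did in each clone, a share close to that of all genes, and both came from the UGT3A cluster.

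By function, the P450s of fatty acids and eicosanoids had 7 of 14 members in a domain of any set, and the P450s of drugs and other foreign compounds had 9 of 21. Steroid hormone synthesis had 3 of 6, and cholesterol, bile acid and oxysterol metabolism had 1 of 7. The 3 vitamin D genes, the 4 retinoid genes, CYP20A1, the 9 UGT1A genes and the 10 UGT2 genes had none, while both UGT3A genes did. These counts cover any of the 5 sets, in which 12.6% of all genes lay. The grouping by role was made with the calls known and is a description.

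The CYP4 cluster on chromosome 1 holds fatty acid hydroxylases. CYP4B1, CYP4A11, CYP4X1 and CYP4Z1 lay in H3K27me3 in both clones, and CYP4A22, a close copy of CYP4A11, lay in neither. The Clone 3 calls of CYP4B1 and CYP4Z1 were lost with domains of at least 100 kb, and that of CYP4Z1 also with the upper 50% by score. With at least 50% of the gene body required, CYP4Z1 was lost in both clones. In Clone 3 the start of CYP4B1 (chr1:46757838) was in a domain of 45 kb at chr1:46726001-46771000. The next domain, 82 kb at chr1:46795001-46877000, held no member's record start. A domain of 156 kb at chr1:46897001-47053000 held CYP4A11 and CYP4X1, and another, of 13 kb at chr1:47057001-47070000, held CYP4Z1. In Clone 6 the same genes fell in 2 domains, 150 kb at chr1:46726001-46876000 with CYP4B1 and 172 kb at chr1:46898001-47070000 with the rest. A domain ended in both clones at the same kb inside CYP4Z1, 2.77 kb past its start, so that 5.42% of the CYP4Z1 body was covered. CYP4A22 started 67.4 kb from the nearest domain of Clone 3 and 8.57 kb from that of Clone 6, a further domain of 68 kb at chr1:47146001-47214000 that covered 30.3% of its body. CYP4B1 has a canonical transcript start 41208 bases downstream of its gene record, and that start was in a domain of both clones as well. The Clone 3 pieces carried an equal second score, 69.1, across gaps of 24, 20 and 4 kb. The CYP4 span was covered to 67.4% in Clone 3 and 75.0% in Clone 6.

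CYP2A6, the main nicotine-oxidising enzyme, opens the chromosome 19 cluster that runs through CYP2A7, CYP2B6, CYP2A13 and CYP2F1 to CYP2S1. A Clone 3 H3K27me3 domain of 270 kb, chr19:40833001-41103000, held CYP2A6, CYP2A7, CYP2B6 and CYP2A13. In Clone 6 a domain of 266 kb, chr19:40856001-41122000, held CYP2A7, CYP2B6, CYP2A13 and CYP2F1. The domain of Clone 6 thus began and ended further along the chromosome at both ends. CYP2A6 started 17.4 kb inside the Clone 3 domain and 5.55 kb outside that of Clone 6. CYP2F1, a lung P450, started 11.4 kb outside the Clone 3 domain and 7.57 kb inside that of Clone 6, whose edge fell in an exon of CYP2F1 and covered 54.3% of its body. CYP2B6, which oxidises efavirenz and bupropion, was the deepest member, 112 and 131 kb from the nearer edge. CYP2S1 lay outside, by 90.2 kb in Clone 3 and 71.2 kb in Clone 6. Domains covered 71.3% and 73.1% of the span, and 2.11% and 0% of the 250 kb on each side.

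The promoters of the CYP2A genes are near-identical, and they are shown because the clones differed at CYP2A6 while its copies were marked in both. The 100 bases before the canonical start are printed 5′ to 3′ on the gene's strand from RefSeq (GRCh38.p14), with TATAAA, the core of the TATA box, in capitals, at chr19:40850448-40850547 (minus strand), chr19:40882232-40882331 (minus) and chr19:41088351-41088450 (plus):
CYP2A6: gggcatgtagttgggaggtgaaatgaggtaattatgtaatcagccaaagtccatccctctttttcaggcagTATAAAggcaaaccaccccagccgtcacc
CYP2A7: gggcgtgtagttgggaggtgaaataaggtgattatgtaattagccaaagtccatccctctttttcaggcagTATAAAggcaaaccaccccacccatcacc
CYP2A13: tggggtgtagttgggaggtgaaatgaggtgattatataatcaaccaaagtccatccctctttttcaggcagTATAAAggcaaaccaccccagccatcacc
In all 3 the motif began 29 bases before the start. Over 300 bases, CYP2A6 and CYP2A7 were 95.7% identical, CYP2A6 and CYP2A13 90.1%, and CYP2A7 and CYP2A13 89.8%. Of the 50-base words in the gene body, the read length used, 66.8% occurred once in hg38 for CYP2A6, 66.9% for CYP2A7 and 83.9% for CYP2A13. CYP2A6 lay in a domain of Clone 3 alone and the other two in both clones. The handling of reads that match several places is not given in the sources used here, so the calls at these copies are uncertain.

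**Figure D2:**
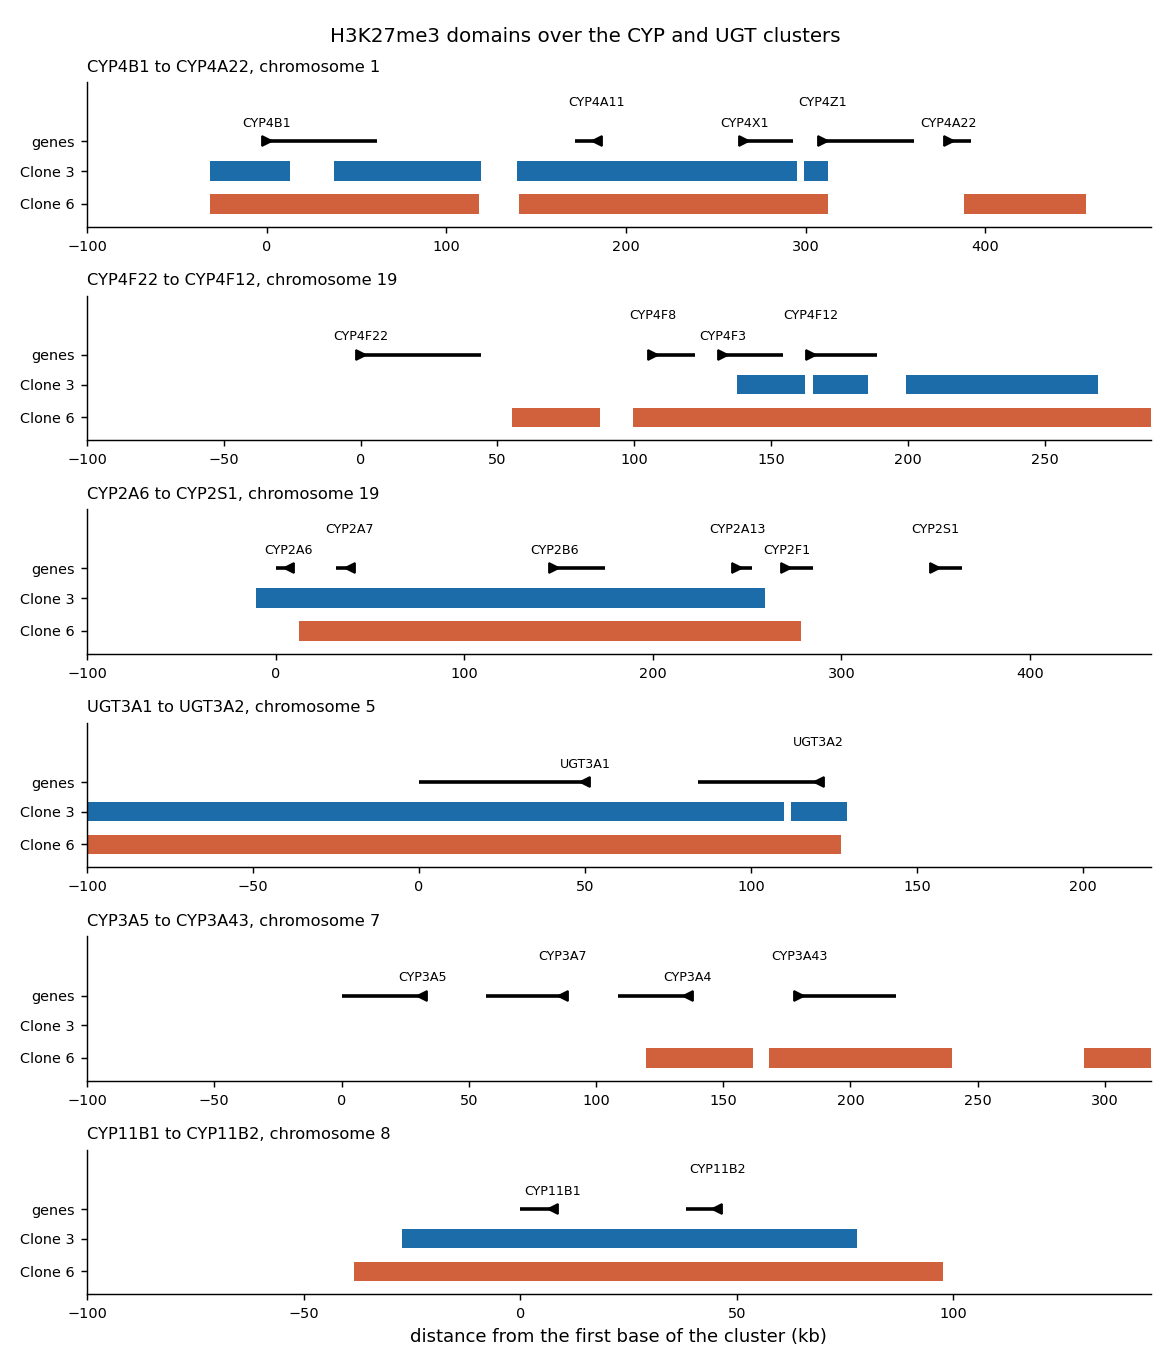
H3K27me3 domains of Clone 3 (blue) and Clone 6 (orange) over the 6 clusters with a Clone 6 domain in their span, with gene records as black lines and start sites as arrowheads that point with transcription. The horizontal axis is the distance in kb from the first base of each cluster, drawn to 100 kb on each side. Both clones have domains over CYP4, CYP4F, CYP2A to CYP2S1, UGT3A and CYP11B, Clone 6 has a further one of 68 kb at the right end of CYP4, and CYP3A has domains in Clone 6 alone.

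The CYP2C cluster on chromosome 10 encodes drug-oxidising enzymes, among them CYP2C19, which activates clopidogrel. It was marked in Clone 3 alone. CYP2C19 (start chr10:94762681) lay in a Clone 3 domain of 80 kb at chr10:94715001-94795000, and CYP2C8 (start chr10:95069497) in a domain of 20 kb at chr10:95060001-95080000. CYP2C18 started 31.3 kb before the first of these, which covered 40.4% of its body. By the lower score the domains of CYP2C19 and CYP2C8 stood at percentiles 50.7 and 27.7 of the Clone 3 set. Both calls were lost with domains of at least 100 kb, and that of CYP2C8 also with the upper 50% by score. With at least 50% of the gene body required, CYP2C19 was lost, as 34.8% of its body was covered. All pieces carried a second score of 67.4. Clone 3 domains covered 43.4% of the span. The nearest Clone 6 domain was 566 kb from the cluster.

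CYP3A4, the P450 with the broadest range of drug substrates, lies on chromosome 7 with CYP3A43, the fetal enzyme CYP3A7 and CYP3A5. This cluster was marked in Clone 6 alone. CYP3A4 lay in a Clone 6 H3K27me3 domain of 42 kb at chr7:99768001-99810000 and CYP3A43 in one of 72 kb at chr7:99816001-99888000, which also held the olfactory receptor gene OR2AE1. CYP3A7 started 32.8 kb and CYP3A5 88.0 kb outside. The nearest Clone 3 domain was 1009 kb from the cluster. By the lower of their 2 scores these domains stood at percentiles 25.7 and 36.5 of the Clone 6 set. Neither call held with domains of at least 100 kb or with the upper 50% of domains by that score. The sequences before the 4 canonical starts are printed to set marked beside unmarked members. Each is 100 bases of RefSeq (GRCh38.p14), 5′ to 3′, with TATAAA in capitals where present, from chr7:99679997-99680096 (minus strand), chr7:99735197-99735296 (minus), chr7:99784185-99784284 (minus) and chr7:99827913-99828012 (plus):
CYP3A5: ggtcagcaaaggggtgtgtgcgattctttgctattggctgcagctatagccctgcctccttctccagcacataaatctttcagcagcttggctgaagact
CYP3A7: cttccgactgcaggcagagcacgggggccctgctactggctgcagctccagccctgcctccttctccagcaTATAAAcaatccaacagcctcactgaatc
CYP3A4: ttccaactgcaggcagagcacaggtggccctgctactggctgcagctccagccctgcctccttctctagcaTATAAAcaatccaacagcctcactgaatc
CYP3A43: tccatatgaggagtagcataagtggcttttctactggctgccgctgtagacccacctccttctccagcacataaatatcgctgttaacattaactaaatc
CYP3A4, in a domain, and CYP3A7, outside, were 93.7% identical over 300 bases and both held TATAAA 29 bases before the start. The other pairs of a marked and an unmarked gene were less alike, with 57.9% for CYP3A4 and CYP3A5, 57.3% for CYP3A43 and CYP3A5, and 65.8% for CYP3A43 and CYP3A7. CYP3A4 and CYP3A43, both in a domain, were 67.5% identical, and CYP3A5 and CYP3A43 held no TATAAA in this window. Of the 50-base words of the gene body, 87.1% to 95.6% were unique across the 4 genes.

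The CYP4F genes on chromosome 19 oxidise leukotrienes, prostaglandins and long-chain fatty acids, and fell into a pair of clusters. In Clone 6, CYP4F8, CYP4F3 and CYP4F12 lay in an H3K27me3 domain of 200 kb at chr19:15608001-15808000 together with the olfactory receptor genes OR10H2, OR10H3 and OR10H5. In Clone 3 none of their starts was in a domain, though 2 were close to one. CYP4F12 started 0.983 kb from a Clone 3 domain, in a gap of 3 kb, with 82.8% of its body covered. CYP4F3, the leukotriene B4 hydroxylase, started 5.10 kb away with 76.7% of its body covered, and CYP4F8 started 30.8 kb away. At CYP4F3 and CYP4F12 the clones thus differed in where an edge fell. CYP4F22, needed for the lipid barrier of the skin, started 137 kb and 55.5 kb from the nearest domain of Clone 3 and Clone 6. CYP4F2 and CYP4F11, the neighbouring cluster, started 120 and 157 kb from a Clone 3 domain and 51.9 and 15.1 kb from a Clone 6 domain. Domains covered 23.9% of the CYP4F22 to CYP4F12 span in Clone 3 and 64.2% in Clone 6, and 0% of the CYP4F2 to CYP4F11 span in both.

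UGT3A1 and UGT3A2 transfer N-acetylglucosamine, glucose or xylose in place of glucuronic acid, and were the UGT genes found in a domain. In Clone 3, UGT3A1 (start chr5:36001028) lay in a domain of 344 kb at chr5:35717001-36061000 with IL7R, the interleukin-7 receptor, and CAPSL. UGT3A2 (start chr5:36071358) lay in a domain of 17 kb that began 2 kb further on, with an equal second score of 58.2. In Clone 6 a single domain of 360 kb at chr5:35718001-36078000 held UGT3A1, UGT3A2, IL7R and CAPSL. Its scores, 166 and 163, were close to each other, and the lower stood at percentile 85.3 of its set. The Clone 3 domain of UGT3A2 stood at percentile 26.6, and its call was lost with domains of at least 100 kb and with the upper 50% by score. The span was covered to 98.3% in Clone 3 and 100% in Clone 6, and the 250 kb on each side to 51.1% and 47.9%. These flanks were uneven, with the left covered to 98.8% in Clone 3 and 93.2% in Clone 6 and the right to 3.46% and 2.66%.

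The other 19 UGT genes lay far from every domain. The 9 UGT1A genes, which include the bilirubin-conjugating UGT1A1, share their last exons and differ in start site on chromosome 2. Their starts were 138 to 280 kb from the nearest Clone 6 H3K27me3 domain and 2664 to 2806 kb from that of Clone 3. The UGT2B and UGT2A genes on chromosome 4, which conjugate steroids, bile acids and odorants, started 1161 to 1865 kb from Clone 3 and 1178 to 1882 kb from Clone 6 H3K27me3 domains. Their distance to a Clone 3 H3K9me3 domain was 1420 to 2254 kb.

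Among the steroid hormone genes, CYP11B1 and CYP11B2, the last enzymes of cortisol and aldosterone synthesis in the adrenal cortex, lay in H3K27me3 in both clones. The Clone 3 domain, 105 kb at chr8:142845001-142950000, held no other coding start site, and the Clone 6 domain, 136 kb at chr8:142834001-142970000, also held GML. The cluster span was covered to 100% in both clones. CYP11A1, which makes pregnenolone from cholesterol, started 6.35 kb inside a Clone 6 domain of 40 kb at chr15:74334001-74374000, and 60.6 kb outside the nearest Clone 3 domain. The lower score of this Clone 6 domain, 12.5, was at percentile 6.1, the lowest of the 9 Clone 6 domains that held a member, and the call was lost with domains of at least 100 kb and with the upper 50% by score. CYP17A1, CYP19A1 (aromatase) and CYP21A2 were in no domain, with Clone 6 H3K27me3 distances of 425, 333 and 1752 kb. Of the 50-base words of CYP21A2, which has a near-identical pseudogene, 36.4% were unique, the lowest of all members, so its call is uncertain.

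CYP7B1, the oxysterol 7α-hydroxylase, was the sole member in H3K9me3. Its start (chr8:64798737) lay 311 kb from the nearer edge of a Clone 3 domain of 1493 kb at chr8:63617001-65110000, which held 1 other coding start, that of BHLHE22. The clone-shared domain was 1487 kb and held the same 2 genes. The median Clone 3 H3K9me3 domain was 140 kb. CYP7B1 had 82 CpGs per kb in the 1 kb around its start, in a surrounding 100 kb with a GC content of 38.5%. For the other 76 members the nearest Clone 3 H3K9me3 domain was at least 536 kb away, with a median of 3700 kb. CYP7A1, the rate-limiting enzyme of bile acid synthesis from cholesterol, was 556 kb from H3K9me3 and 110 and 142 kb from the H3K27me3 domains of Clone 3 and Clone 6. CYP8B1, CYP27A1, CYP39A1, CYP46A1 and CYP51A1 of the same group were in no domain, although a Clone 6 H3K27me3 domain covered 49.5% of CYP46A1, the brain cholesterol hydroxylase, from 21.7 kb past its start.

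The remaining members lay in none of the 5 sets. CYP2E1, which oxidises ethanol, came closest, as a Clone 6 H3K27me3 domain began 9.6 kb past its record start and covered 73.5% of its body, while the nearest Clone 3 domain was 1775 kb away. The aryl hydrocarbon-inducible CYP1A1 and CYP1A2 form a cluster 413 kb from the nearest Clone 3 and 346 kb from the nearest Clone 6 H3K27me3 domain, and CYP1B1 was 1696 and 2240 kb from them. CYP2D6 and CYP2D7 were 1147 to 1272 kb from a domain in either clone, with 58.3% and 73.8% of their 50-base words unique. The retinoic acid hydroxylases CYP26A1, CYP26B1 and CYP26C1 were 987 kb or more from any H3K27me3 domain, and CYP27C1 was 226 and 170 kb away. Of the vitamin D enzymes, CYP24A1 was 60.0 and 188 kb away, CYP2R1 380 kb in both clones, and CYP27B1 2125 and 2627 kb. CYP2J2, CYP2U1, CYP4V2, CYP2W1 and CYP20A1 were 726 kb or more from either H3K27me3 set.

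The clones differed at 10 members. CYP2C19, CYP2C8 and CYP2A6 lay in H3K27me3 in Clone 3 alone (3.9% of members, beside 1.14% of all genes), a count that fell from 3 to 1 with domains of at least 100 kb. CYP11A1, CYP4F8, CYP4F3, CYP4F12, CYP2F1, CYP3A4 and CYP3A43 did so in Clone 6 alone (9.09%, beside 2.64%). Of these, CYP2A6, CYP2F1, CYP4F3 and CYP4F12 started within 20 kb of a domain in the other clone. CYP2C19, CYP2C8, CYP3A4, CYP3A43, CYP11A1 and CYP4F8 did not. With 1 merged set per clone, a difference between the clones and a difference between their libraries or calls cannot be told apart.

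The 14 cluster spans together were covered to 30.7% in Clone 3 and 32.0% in Clone 6, and the 250 kb on each side to 8.33% and 12.1%. In each clone all 6 clusters with a domain in their span had a higher share there than in the flanks. These clusters were picked by having that domain, which favours the span, so the count is a description. CYP4F2 to CYP4F11 had 0% in the span and 23.0% and 45.2% in the flanks. Its flanks reach into the CYP4F22 to CYP4F12 cluster and its domains. UGT1A, with 0% in the span, had 6.0% in its Clone 6 flanks. The median cluster was covered to 0% in both clones, and no cluster span held H3K9me3.

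**Figure D3:**
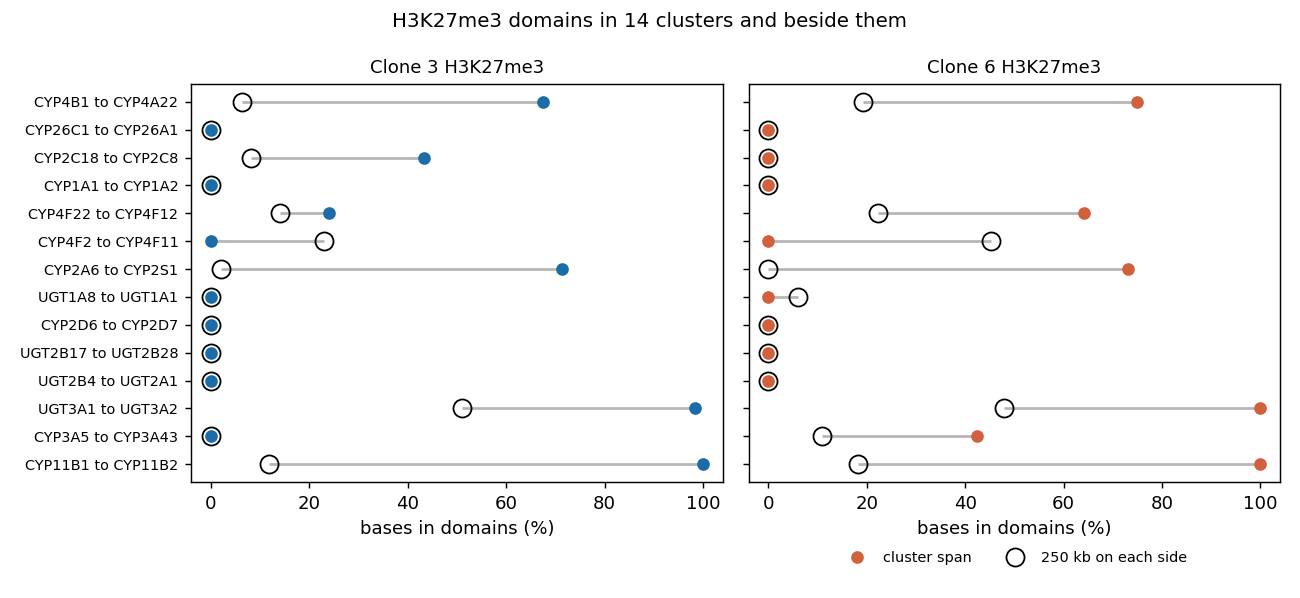
Share of bases in H3K27me3 domains (%, horizontal axis) for each of the 14 clusters (rows), with the span as filled points and the 250 kb on each side as open rings. In each clone 6 clusters have the filled point to the right of the ring, and CYP4F2 to CYP4F11 has it to the left. In Clone 6 UGT1A8 to UGT1A1 also has it to the left.

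Start sites of the marked members were poor in CpG, counted at the start of the gene record. For 10 members the canonical start lies at least 1 kb from it, and CpG was not counted there. The 14 members in Clone 3 H3K27me3 had a median of 8 CpGs per kb in the 1 kb around the start, against 14 for the 63 outside, and in Clone 6 the medians were 8.5 and 14. Over all genes the medians in and outside were 16 and 61 in Clone 3 and 23 and 61 in Clone 6. Clustered members had a median of 9.5 and lone members of 59. Of the 22 members with at least 20 CpGs per kb, a value chosen after seeing the data, CYP4X1 (53) alone lay in H3K27me3 of either clone (4.55%, beside 6.18% of all genes with as many). Of the 55 with fewer, 20 did (36.4%, beside 19.0% of all such genes). Over all genes 9.13% lay in H3K27me3 of either clone. These 20 start sites came from 7 clusters and CYP11A1. The 34 clustered members in neither clone had a median of 12.5 CpGs per kb, and the UGT2 genes had 3 to 16 with no domain near, so a low CpG count was common to marked and unmarked clusters.

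**Figure D4:**
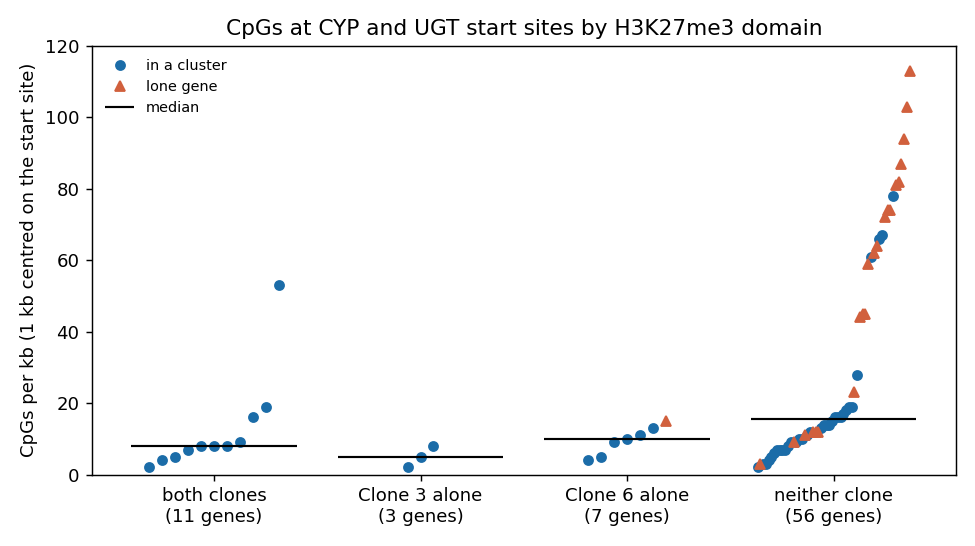
CpGs per kb in the 1 kb centred on each start site (vertical axis) for members in H3K27me3 of both clones, of Clone 3 alone, of Clone 6 alone and of neither, with clustered genes as circles, lone genes as triangles and medians as lines. The medians are 8, 5, 10 and 15.5, and the values above 60 all belong to genes in neither clone.

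The 100 kb around members marked in Clone 3 alone held a median of 38.5% GC (37.2% to 48.4%, 3 genes), with CYP2C8 lowest and CYP2A6 highest. Around members marked in Clone 6 alone it was 45.9% (41.7% to 52.8%, 7 genes), with CYP3A4 lowest and CYP11A1 highest. The ranges overlapped. Over all genes the medians were 39.1% for Clone 3 alone and 47.2% for Clone 6 alone, so the difference is not particular to these members. Whether GC content had a part in the calls was not tested.

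Promoter motifs were read from RefSeq for the 54 members with an entry within 100 bases of their canonical start, over 250 bases before and 50 after it and on both strands. TATAAA was found in 21 (38.9%), against 11.5% of 35116 promoters. AGGTCA, a half-site of nuclear receptors, was found in 17 (31.5%), against 13.8%. GCGTG, the core that the aryl hydrocarbon receptor recognises, was found in 17 (31.5%), against 36.5%. Members of a cluster can be copies of each other, as the CYP2A promoters printed above are, so these counts are not independent, and a match is not evidence of binding.

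Few other genes of drug and steroid metabolism were in a domain. Of 93 genes found from 9 lists (nuclear receptors, P450 electron donors, sulfotransferases, glutathione transferases, flavin monooxygenases, alcohol dehydrogenases, carboxylesterases and epoxide hydrolases, drug transporters, and acetyltransferases with sugar donor supply), 1 lay in H3K27me3 in each clone. It was NR1H4, the bile acid receptor, in Clone 3 and SULT4A1, a brain sulfotransferase, in Clone 6 (1.08% each, beside 6.49% and 7.98% of all genes and 18.2% and 23.4% of CYP and UGT genes). None lay in H3K9me3 or in the clone-shared H3K27me3 set.

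Several members have near-identical copies. Members in H3K27me3 of either clone had a median of 88.1% unique 50-base words in their body, with CYP4Z1 lowest at 53.0%. Members in neither clone had a median of 93.0%. CYP4A11 was at 70.4% and in a domain, whereas its copy CYP4A22 was at 70.6% and in none. The part of mapping in the calls was not tested.

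**Figure D5:**
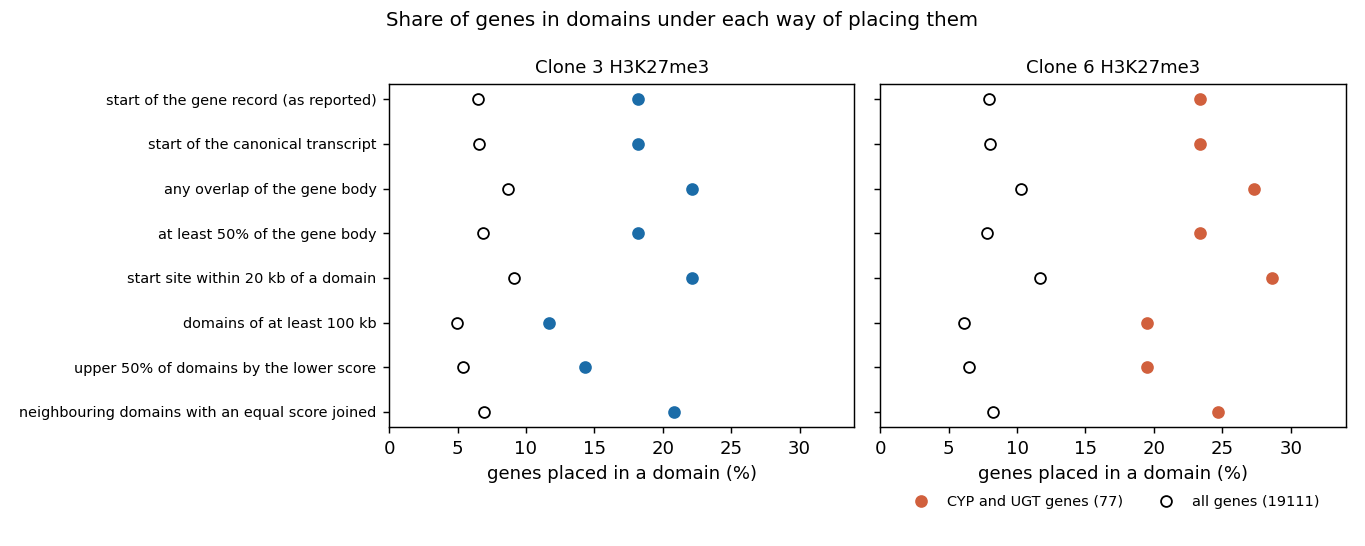
Share of genes placed in an H3K27me3 domain (%, horizontal axis) under the start site as reported and 7 other ways of placing genes (rows), for the 77 CYP and UGT genes (filled) and all 19111 genes (open). In Clone 3 the CYP and UGT share runs from 11.7% to 22.1% and the share of all genes from 4.96% to 9.09%, and in Clone 6 from 19.5% to 28.6% and from 6.14% to 11.7%.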

How the data were processed

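H3K9me3 and H3K27me3 were measured by ChIP-seq in 7 samples, grouped by clone and mark from their titles. Per the paper's methods and the submitters' processing notes, the authors trimmed read pairs of 50 bases with Trim Galore 0.5.0, aligned them to hg38 with Bowtie2 2.3.5, removed duplicates with samblaster, called domains with Enriched Domain Detector and kept coordinates found in both replicates. The other tools named there were bcl2fastq 1.9.0, FastQC 0.11.8, deepTools 3.2.0 and bedtools 2.25.0. The deposited files list each domain by its start and end in whole kb. In the 3 sets of a single clone the authors give 2 scores per domain, whose scale is not stated and which served only to rank or join domains. The methods give a minimum depth per library, and the depth of each library and the replicate error are not in these tables.

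Here (Python 3.11.15, numpy 2.4.6, pandas 2.3.3, Biopython 1.88, numba 0.67.0, matplotlib 3.10.9), a gene was in a domain when the 5′ end of its GENCODE v44 record was. Members are named, apart from 1 that is not reported here, with other coding genes in their domains. Cluster spans ran from the first to the last base of the members. GC and CpG were counted in hg38, and words of 50 bases were counted over both strands of chromosomes 1 to 22, X and Y. RefSeq promoters (GRCh38.p14) matched 56 members by symbol. Gene placement, the distance joining genes and the domain set were varied. The steps were tested on simulated data. Members and lists were chosen with earlier results of these data known.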

Additional observations from a re-analysis of the deposited data

How the results depend on the processing

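Of 98 recomputed counts and shares, 94 stayed within 1.5 times the reported value, and of 318 recomputed values of single genes, 270 kept their call. With domains of at least 100 kb, Clone 3 H3K27me3 held 9 members, all without H3K9me3, in place of 14, since CYP4B1, CYP4Z1, CYP2C19, CYP2C8 and UGT3A2 lay in shorter pieces, and 1 member in place of 3 was in Clone 3 alone. The same setting left 15 members in Clone 6 in place of 18, with CYP11A1, CYP3A4 and CYP3A43 lost, which ends every call in the CYP3A cluster, as the losses in Clone 3 do in CYP2C. The upper 50% of domains by the lower score lost the same 3 genes in Clone 6 (15 members). In Clone 3 it lost CYP4Z1, CYP2C8 and UGT3A2 (11 members). Neighbouring domains with an equal score made 1304 pairs among 2600 domains in Clone 3 and 396 among 1959 in Clone 6. Cuts by length and score treat such pieces singly, so they may fall unequally on the clones. With genes joined at 100 kb in place of 200 kb there were 46 loci, 8 of them in Clone 3 H3K27me3 in place of 5. The start of the canonical transcript changed no call of a member in any set. Joining neighbouring domains with an equal score, an alternative chosen after seeing the data, gave 16 members in Clone 3 (beside 6.94% of all genes), with CYP4F12 gained, and 19 in Clone 6 (beside 8.22%), with CYP4A22 gained.

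No paired analysis was possible because the domain tables combine the replicates into 1 set per clone and mark. For the same reason no replicate was left out. The exact depth of each library is unknown.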
